A study of Mus musculus with 9 samples.

Results

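Mouse genes known only from a computer prediction or a cDNA clone carry provisional names: Gm and a number for a predicted gene, a clone number ending in Rik for a RIKEN cDNA, and BC and a number for a cDNA record. The genes described here are all rows with such a name in the authors' deposited tables of differential expression in embryonic cortex. They are 78 of the 1030 genes listed in those tables, made up of 45 Gm genes, 32 Rik genes and 1 BC gene. The name alone chose them, and the 1 identifier ENSMUSG00000112640 (Gm32687), which has no name in the table, was left out.

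Poly(A) RNA was sequenced from 9 cortices taken at embryonic day 12, with 3 embryos in each of 3 genotypes and 2 litters in all. WT embryos were Emx1 Cre/+; Zbtb7a +/+, cHet embryos Emx1 Cre/+; Zbtb7a fl/+, and cKO embryos Emx1 Cre/+; Zbtb7a fl/fl. Every embryo, WT included, therefore carried Cre at Emx1, which is active in dorsal telencephalic progenitors and their descendants, while interneurons that migrate in from the ventral telencephalon arise outside its domain. The floxed gene, Zbtb7a, codes for a zinc finger transcription factor with a BTB domain, and it was listed in none of the 3 tables. The labels do not tie embryos to litters, so litter and genotype cannot be told apart. In bulk tissue, fewer cells of a type and less RNA per cell cannot be told apart.

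The tables give no values per library, so each result below is the log2 fold change of the authors' DESeq2 test with its standard error (SE) from 3 libraries per group. Values below 0 are lower in the first-named group. A gene is called listed where the adjusted p was under 0.05, which is the threshold the tables hold to. How many Gm, Rik and BC genes were tested and missed the threshold is not given, so shares below are shares of listed genes.

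Provisional names cover several kinds of gene. Processed pseudogenes are copies of spliced messenger RNAs that were reverse transcribed and inserted elsewhere in the genome, so they lack introns and resemble the gene they came from. Widely and strongly expressed genes, such as those for ribosomal proteins, have left many of them. Long non-coding RNAs are transcripts with no known protein product, and many start next to the promoter of a developmental gene or contain the hairpins of microRNAs.

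In the GENCODE M21 annotation of GRCm38, the assembly also called mm10, 33 of the 78 genes were annotated as protein-coding, 32 as pseudogenes and 13 as other non-coding RNAs. A single exon was annotated for 33 of them. In that annotation 13 genes had another name than in the tables, and 12 of these no longer had a provisional one. E130012A19Rik is Epop there, 2610034M16Rik is Pdzph1, 2410016O06Rik is Riox1, B930041F14Rik is Fndc10, 1110001J03Rik is Fmc1, 1110034G24Rik is Shld1, 9230110C19Rik is Cfap300, 2010107G23Rik is Fam241b and Gm5607 is Sox1ot. RefSeq had an entry for 69 of the 78. Of the 33 genes that GENCODE calls protein-coding, RefSeq calls 3 a pseudogene (Gm10053, Gm7879 and Gm14418) and 1 a long non-coding RNA (Gm11627).

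In cHet cortex against WT, 10 of these genes were listed, 8 lower and 2 higher. They were 3 Gm genes, all lower, and 7 Rik genes, 5 lower and 2 higher. Of all 15465 genes in the authors' adjustment, 1.6% were listed, 0.789% as lower and 0.815% as higher. Provisional names made up 6.56% of the 122 genes listed as lower and 1.59% of the 126 listed as higher. Over both directions the median change was -0.90 for the 10 genes and 0.40 for the 238 other listed genes, of which 124 were higher. Among lower genes alone the medians were -1.09 and -0.98.

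The smallest adjusted p belonged to Gm29260, a long intergenic non-coding RNA at chr1:41781808-41939560 on the plus strand. In the authors' deposited table it was lower in cHet than in WT by a log2 change of -2.29 (SE 0.29, adjusted p = 9.65e-11). Against cKO, the authors' deposited table gave -2.50 (SE 0.29, adjusted p = 1.80e-13). Its nearest protein-coding gene, Pou3f3, lies 756.2 kb away and was listed in no table. Gm29260 was thus lower in cHet in both comparisons, which share the 3 cHet libraries.

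Further non-coding RNAs were lower in cHet than in WT. Gm26872, an intergenic RNA at chr5:106465800-106471007, had -3.26 (SE 0.85, adjusted p = 0.0186) in the authors' deposited table, and it has no row against cKO. It lies 7.63 kb from Barhl2, a homeobox transcription factor gene, which in the authors' deposited tables was lower by -1.48 against WT and -1.66 against cKO. C630043F03Rik, which starts 428 bp from Tle1 on the other strand, had -0.77 (SE 0.17, adjusted p = 0.00329) against WT and -0.68 (SE 0.17, adjusted p = 0.00991) against cKO in the authors' deposited tables. Tle1 encodes a Groucho family co-repressor, and it was not listed. A230072C01Rik, on the X chromosome, had -1.03 (SE 0.31, adjusted p = 0.0474) against WT and -0.99 (SE 0.31, adjusted p = 0.0319) against cKO in the authors' deposited tables. It shares 140 bp of exon with Uxt on the opposite strand. Whether the authors' counting used strand is not given in the sources used here, so reads from such overlapping pairs may not be separable.

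The 4 protein-coding genes of this comparison went both ways. Epop (E130012A19Rik), whose product links elongin BC to the Polycomb repressive complex PRC2, was higher in cHet, with 0.67 (SE 0.13, adjusted p = 1.73e-04) against WT and 0.47 (SE 0.13, adjusted p = 0.0163) against cKO in the authors' deposited tables. E130309D02Rik was also higher, with 0.41 (SE 0.11, adjusted p = 0.0221) against WT and 0.36 (SE 0.11, adjusted p = 0.0301) against cKO in the authors' deposited tables. It shares 458 bp of exon with Gm42501 on the opposite strand. Pdzph1 (2610034M16Rik), named for its PDZ and pleckstrin homology domains, was lower, with -1.15 (SE 0.28, adjusted p = 0.00860) against WT and -1.41 (SE 0.28, adjusted p = 1.79e-04) against cKO in the authors' deposited tables. 2610008E11Rik was lower against WT, with -0.41 (SE 0.12, adjusted p = 0.0348) in the authors' deposited table, and it has no row against cKO.

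Of these 10 genes, 7 were also listed against cKO, all with the same sign, which is 70.0% of the 10 and 9.33% of the 75 listed in that comparison. Among all genes, 190 were in both cHet tables, all with the same sign, which is 76.6% of 248 and 19.6% of 971. The comparisons share the cHet libraries, so these shares are no independent repeat. None of the 10 was listed in cKO against WT, nor was any other of the 248. That comparison listed 4 of 26976 genes, or 0.0148%.

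**Figure D1:**
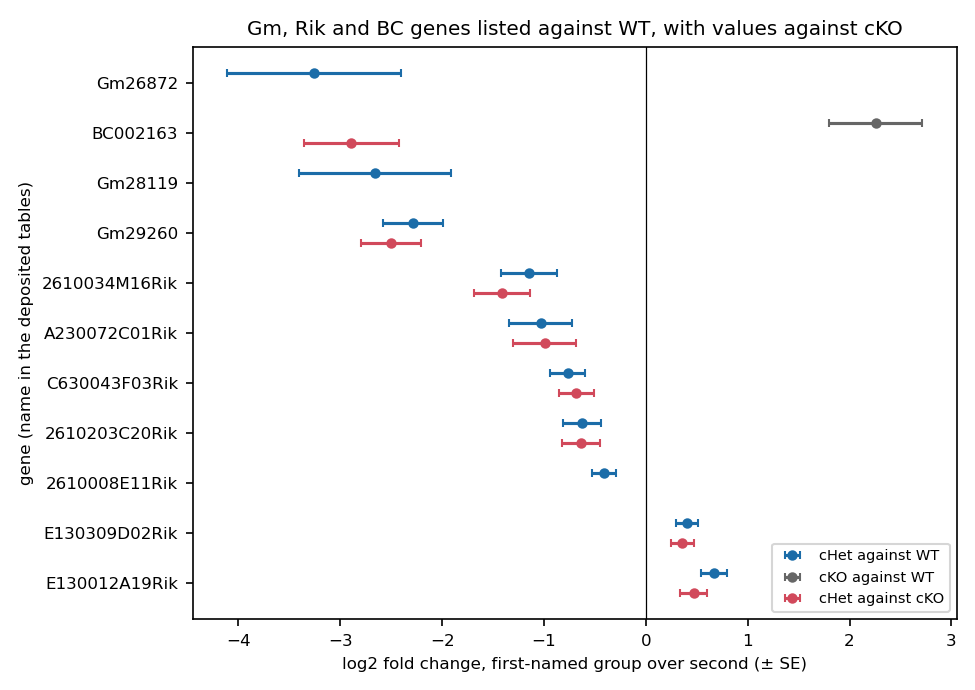
Log2 fold changes (x axis, with bars of 1 SE) in the authors' deposited tables of the 10 Gm and Rik genes listed in cHet against WT and of BC002163, listed in cKO against WT, 1 line per gene and 1 colour per comparison. Where a gene has values against both WT and cKO for cHet, they lie on the same side of 0, as for Gm29260 at -2.29 and -2.50, and BC002163 has 2.26 in cKO against WT and -2.89 in cHet against cKO.

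A locus on chromosome 9 held 2 of the genes lower in cHet than in WT. 2610203C20Rik, named 3110039I08Rik in the annotation, is a non-coding transcript on the plus strand of chr9:41327077-41716994 that spans 389.9 kb. Its introns contain the hairpins of Mir100, Mirlet7a-2 and Mir125b-1, a conserved microRNA cluster. In the authors' deposited tables it was lower by -0.62 (SE 0.18, adjusted p = 0.0474) against WT and by -0.64 (SE 0.18, adjusted p = 0.0239) against cKO. Gm28119, at chr9:41581908-41582283 on the same strand, lies within an intron of it and holds the Mir125b-1 hairpin in its exonic sequence. The authors' deposited table gave Gm28119 -2.66 (SE 0.74, adjusted p = 0.0313) against WT and no row against cKO.

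The microRNAs of these hairpins are shown because 2610203C20Rik spans all 3 hairpins and Gm28119 holds that of Mir125b-1. The 5 mature sequences that the RefSeq table (GRCm38.p6) gives at the locus are printed 5′ to 3′ with the seed, bases 2 to 8, in capitals.
mmu-miR-100-5p: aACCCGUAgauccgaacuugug
mmu-miR-100-3p: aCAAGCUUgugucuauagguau
mmu-let-7a-2-3p: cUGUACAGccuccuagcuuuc
mmu-miR-125b-5p: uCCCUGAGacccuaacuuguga
mmu-miR-125b-1-3p: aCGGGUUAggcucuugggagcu
The 5 seeds differ from each other, and let-7a-5p is not printed. The libraries were made from poly(A) RNA and the tables hold no row for a mature microRNA of this cluster, so these microRNAs were not measured.

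**Figure D2:**
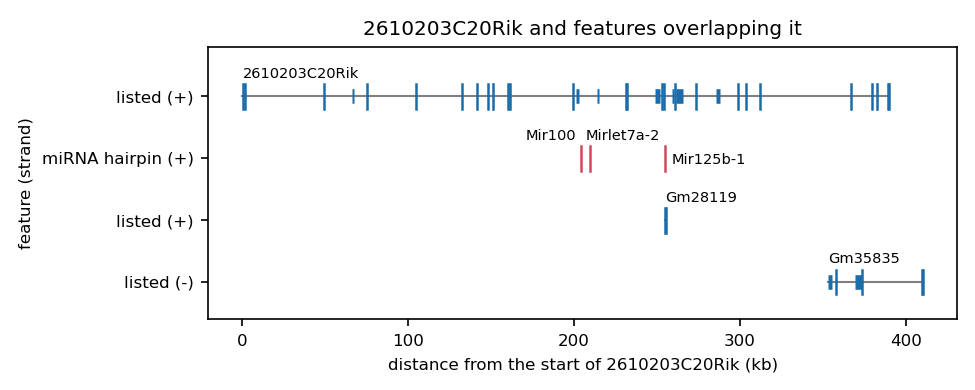
Map of 2610203C20Rik with distance in kb from its start on the x axis and the annotated features on separate lines by strand. Exons are blue and hairpins red, with longer exons drawn as bars and short exons and hairpins as thin ticks. Mir100, Mirlet7a-2 and Mir125b-1 lie 204.3, 209.6 and 254.8 kb from the start.

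A single gene with a provisional name was listed in cKO against WT, where 4 of 26976 genes were listed, or 0.0148%. It was BC002163, a processed pseudogene at chr16:42955631-42955949 on the plus strand, and it was the 1 gene listed as higher (0.00371% of those in the adjustment), while the 3 listed as lower (0.0111%) have other names. The authors' deposited table gave it 2.26 (SE 0.46, adjusted p = 0.00764) in cKO against WT. In cHet against cKO it was lower, at -2.89 (SE 0.46, adjusted p = 7.59e-07) in the authors' deposited table. It had no row in cHet against WT. BC002163 was thus higher in the cKO libraries than in either other group.

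BC002163 copies Ndufs5, the gene of a complex I subunit of the respiratory chain, and Ndufs5 itself was listed in none of the tables. Over all 319 bases of the pseudogene the identity to the Ndufs5 transcript was 99.4%. The copy starts at the first base of the Ndufs5 coding sequence and stays within it. The 2 differences, in capitals below, are T81C and A105G, with the base of Ndufs5 first and positions counted from the first base of the start codon. Both fall on the 3rd base of a codon, in codons 27 and 35. The first 300 bases (GENCODE M21 transcript, GRCm38) are shown because only these 2 bases separate a read of the copy from a read of Ndufs5.
BC002163: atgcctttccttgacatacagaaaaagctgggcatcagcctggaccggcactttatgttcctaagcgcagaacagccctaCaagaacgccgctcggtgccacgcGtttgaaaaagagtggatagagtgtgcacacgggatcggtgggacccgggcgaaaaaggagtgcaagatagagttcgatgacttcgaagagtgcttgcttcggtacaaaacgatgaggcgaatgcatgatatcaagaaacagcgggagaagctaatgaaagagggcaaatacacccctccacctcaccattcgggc
The pseudogene lies within an intron of Zbtb20, on the same strand. Zbtb20, a zinc finger gene with a role in hippocampal development, was lower in cHet by -1.03 against WT and -0.97 against cKO in the authors' deposited tables.

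In cHet cortex against cKO, 75 of the genes were listed, 69 lower and 6 higher. All 43 Gm genes and the BC gene were lower, while the 31 Rik genes split into 25 lower and 6 higher. Of the 13375 genes in the authors' adjustment, 7.26% were listed, 4.14% as lower and 3.12% as higher. Provisional names made up 12.5% of the 554 genes listed as lower and 1.44% of the 417 listed as higher. Over both directions the median change was -0.99 for the 75 genes and -0.48 for the 896 other listed genes, of which 411 were higher. Among lower genes alone the medians were -1.04 and -0.80.

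The smallest fall was -0.43. A change of at least 1 on the log2 scale was seen for 37 of the 75 genes (49.3%), all of them lower. Among the 896 other listed genes 129 (14.4%) changed by that much in either direction. Genes both listed and changed by that much were 1.24% of those in the adjustment. The median SE was 0.29 for the 75 genes and 0.18 for the others, so the 75 in general needed larger changes to be listed. An adjusted p over 0.04 was given for 23 of the 75. The 75 genes lay on 20 chromosomes, with 12 of them on chromosome 2. This count was not set against the share of all listed genes on that chromosome.

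By annotated class, all 32 pseudogenes were lower, with a median of -1.12, and so were all 18 other listed pseudogenes, with a median of -1.03. All 11 non-coding RNAs were lower, with a median of -1.08, as were 11 of 12 other listed non-coding RNAs. The 32 protein-coding genes split into 26 lower and 6 higher, against 456 lower and 410 higher among 866 other listed protein-coding genes. Pseudogenes and non-coding RNAs were thus nearly all lower, both among the Gm, Rik and BC genes and among the other listed genes. The other listed genes include rows without a gene name, and the annotation gives 7 of these rows a provisional one.

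**Figure D3:**
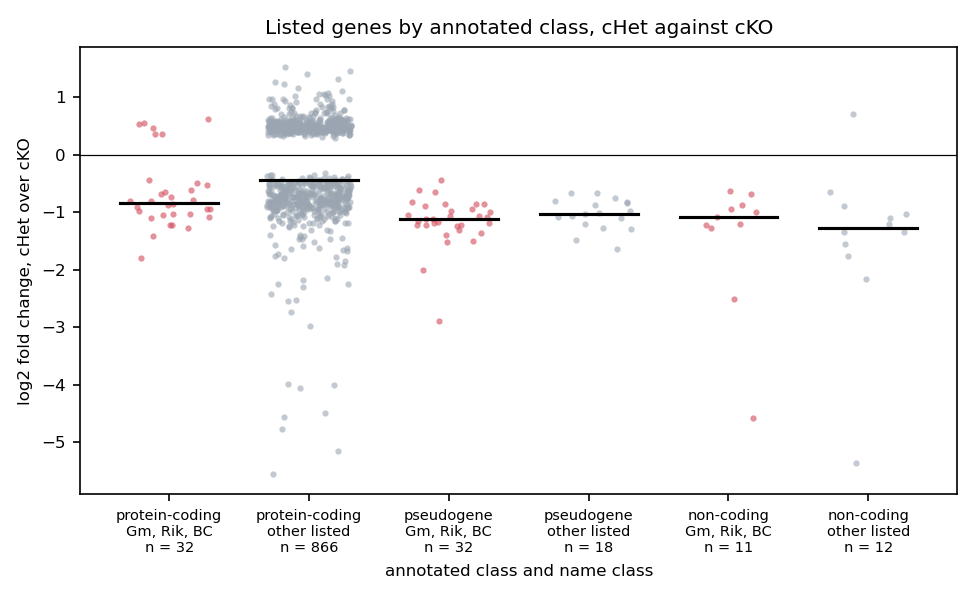
Log2 fold change of cHet against cKO (vertical axis) of every listed gene by annotated class, with Gm, Rik and BC genes beside the other listed genes and a line at each median. All 32 Gm, Rik and BC pseudogenes lie below 0, and 1 gene below -6.5 is not drawn.

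Nearly every pseudogene matched a protein-coding gene, called its source below. A protein-coding gene matched 26 of the 32 at 95% identity or more over at least 300 bases, and 31 did once a match over 90% of the pseudogene's own length was also accepted. The exception was 1600029O15Rik, a spliced, transcribed pseudogene. Identity ranged from 95.1% to 100% and reached 100% for 6 pairs. In 26 of the 31 pairs the pseudogene and its source lie on different chromosomes.

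Many of the sources are known as housekeeping genes. Ribosomal protein genes were the source of 7 pseudogenes, which were lower by -0.83 to -2.01 in the authors' deposited table. They were copies of Rpl6, Rpl7, Rpl11, Rpl13a, Rpl41, Rps24 and Fau. Respiratory chain and ATP synthase genes were the source of 4 (Ndufs5, Atp5l, Atp5h and Cox7c), which were lower by -1.12 to -2.89 in the authors' deposited table. Translation factors and nascent chain binding proteins (Eef1a1, Naca, Btf3) gave 3, with -0.64 to -1.07 in the authors' deposited table. Sm and Sm-like proteins of RNA processing (Snrpe, Lsm5, Lsm7) gave 3, with -1.09 to -1.36 in the authors' deposited table. The cytoskeletal genes Stmn1, Tuba1c and Tmsb10 gave 3, with -0.61 to -1.07 in the authors' deposited table. Others were copies of Ubb, Tomm20, Immp1l, Sec61g, Atp6v1g1, Dnajb6, Sms, Rbm3, Cdh11 and 1810022K09Rik. Besides the copies given elsewhere, the pseudogenes with the largest changes or smallest adjusted p were Gm14284 (a match to Snrpe) at -1.36 (SE 0.40) and Gm10221 (a match to Atp5l) at -1.12 (SE 0.30) in the authors' deposited table. 2610005L07Rik, the match to the cadherin gene Cdh11 and a pseudogene that is not a processed copy, had -0.85 (SE 0.26) in the authors' deposited table. These groups were drawn up after the matches were known.

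Some of the sources were listed themselves. Against cKO, 7 of the 31 were listed, all lower, and 24 were not. That is 22.6%, where 7.26% of all genes in the adjustment were listed and 4.14% as lower. Each source was chosen because its copy was listed as lower, and the pairs can share reads. The 22.6% is therefore not independent of that choice. In cHet against WT, 0 of the 31 were listed, where 1.6% of all genes in the adjustment were listed. Tomm20, a receptor of the mitochondrial import channel, had -0.90 (SE 0.30) and its copy Gm14494 -1.40 (SE 0.41) in the authors' deposited table. Atp6v1g1, a subunit of the vacuolar proton pump, had -0.78 (SE 0.23) and its copy Gm13453 -1.51 (SE 0.52) in the authors' deposited table. In both pairs the copy had the lower value and the larger SE.

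A further 4 pairs ran the same way. Atp5h, a subunit of ATP synthase, had -0.79 (SE 0.27) and its copy Gm10250 -1.19 (SE 0.30) in the authors' deposited table. Stmn1, which destabilises microtubules, had -0.53 (SE 0.15) and its copy Gm11223 -0.61 (SE 0.19) in the authors' deposited table. Tmsb10, an actin monomer binding protein, had -0.57 (SE 0.18) and its copy Gm3788 -0.86 (SE 0.29) in the authors' deposited table. 1810022K09Rik, itself 1 of the 78, had -0.85 (SE 0.29) and its copy Gm4540 -1.14 (SE 0.38) in the authors' deposited table. Over the 6 pairs given here the copy was lower than its source by -0.08 to -0.73, with a median difference of -0.35. Both genes of a pair had to pass the threshold to be compared, and each copy had the larger SE. A copy therefore needed a larger change than its source to be listed, which favours this direction. Pairs can share reads and their errors are not independent, so the difference was not tested.

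**Figure D4:**
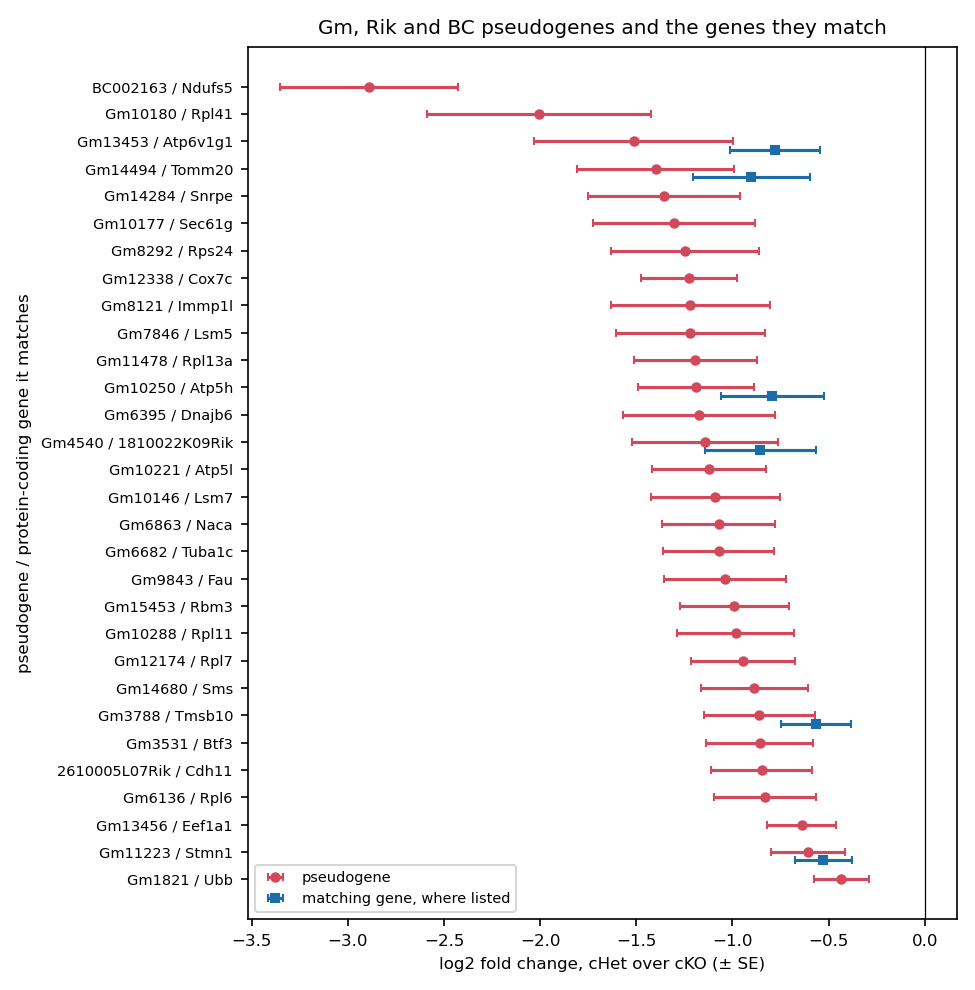
Log2 fold change of cHet against cKO (x axis, with bars of 1 SE) for 30 Gm, Rik and BC pseudogenes with a matching protein-coding gene, and for that gene where it was listed. All 30 pseudogenes drawn are below 0, and the 6 matching genes drawn each lie closer to 0 than their copy.

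How far reads can separate a copy from its source depends on the letters. A further pair of copies is shown for this, both inside the source's coding sequence from its first base and credited to GENCODE M21 transcripts on GRCm38. Gm12338 (chr11:75599763-75599954, minus strand) is identical to Cox7c over its 192 bases, and Gm10180 (chr9:25101404-25101481, minus strand) to Rpl41 over its 78 bases, so neither has capitals.
Gm12338: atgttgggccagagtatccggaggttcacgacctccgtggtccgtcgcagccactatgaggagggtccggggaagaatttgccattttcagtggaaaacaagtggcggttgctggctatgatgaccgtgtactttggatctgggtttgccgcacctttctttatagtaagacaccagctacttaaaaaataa
Gm10180: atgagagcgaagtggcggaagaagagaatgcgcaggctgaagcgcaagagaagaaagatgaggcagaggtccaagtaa
Gm12338 was lower in cHet by -1.22 (SE 0.25, adjusted p = 3.57e-04) and Gm10180 by -2.01 (SE 0.58, adjusted p = 0.0241) in the authors' deposited table. A read lying wholly within either copy has the same letters as its source. How the authors' counting treated reads with several matches is not given in the sources used here, so values of these copies are uncertain.

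The families that the pseudogenes came from were looked at as lists of their own. Of 85 annotated cytosolic ribosomal protein genes, chosen by name, 0 were listed in any of the 3 DESeq2 tables. Copies of ribosomal protein genes listed as lower in cHet than in cKO numbered 7. They include the copy of Fau, a gene that the name rule leaves out of the 85. How many such copies were tested is not known. The number of the 85 genes with an unadjusted p under 0.05 is not in tables of listed genes. The name rule first used for the list also takes in the Rps6k kinases, giving 101 genes, of which Rps6ka1 and Rps6ka3 were higher and Rps6kl1 lower. A list by name of nuclear genes of the respiratory chain and ATP synthase, some assembly factors included, held 90 genes. Of these, 15 were lower and 0 higher in cHet against cKO, with a median of -0.86. That is 16.7% of the annotated genes on the list, where 4.14% of all genes in the adjustment were listed as lower and 3.12% as higher. Ndufs4 (-1.03, SE 0.29), Ndufa7 (-0.99, SE 0.31) and Uqcrq (-0.95, SE 0.30) were among them in the authors' deposited table. Of 67 replication histone genes, 3 were lower and 0 higher, led by Hist1h4c at -1.41 (SE 0.39) in the authors' deposited table. At 4.48%, the histone share was close to the 4.14% of all genes listed as lower.

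Among protein-coding genes, 6 Rik genes were higher in cHet than in cKO. Besides Epop and E130309D02Rik, given above, Fndc10 (B930041F14Rik), named for its fibronectin domain, had 0.63 (SE 0.20, adjusted p = 0.0381) in the authors' deposited table. Riox1 (2410016O06Rik), a JmjC-domain oxygenase of the nucleolus, had 0.53 (SE 0.17, adjusted p = 0.0359) in the authors' deposited table. Riox1 shares 748 bp of exon with Gm26571 on the opposite strand. 2900026A02Rik had 0.55 (SE 0.19, adjusted p = 0.0457) and 2310022B05Rik 0.35 (SE 0.12, adjusted p = 0.0468) in the authors' deposited table. None of the 6 reached a log2 change of 1. Epop, Riox1 and Fndc10 have a single exon. By the longest annotated transcript of each gene, median GC content was 59.2% for the 6 and 53.4% for all genes listed as higher.

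Several of the 26 lower protein-coding genes have a known product. Fmc1 (1110001J03Rik), known from yeast as an assembly factor of mitochondrial ATP synthase, had -0.98 (SE 0.33, adjusted p = 0.0474) in the authors' deposited table. Shld1 (1110034G24Rik), a subunit of the shieldin complex of DNA double-strand break repair, had -0.65 (SE 0.21, adjusted p = 0.0418) in the authors' deposited table. Cfap300 (9230110C19Rik), a protein needed to assemble the dynein arms of motile cilia, had -0.44 (SE 0.15, adjusted p = 0.0445) in the authors' deposited table. Each of the 3 was lower in cHet by less than 1 on the log2 scale. Fam241b (2010107G23Rik) had -0.95 (SE 0.27, adjusted p = 0.0213) in the authors' deposited table, and it shares 273 bp of exon with Neurog3 on the opposite strand.

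Besides 1810022K09Rik, given above, other Rik genes annotated as protein-coding carried no other name in the annotation. The largest falls among them were 1700037C18Rik at -1.23 (SE 0.36), 6430571L13Rik at -1.21 (SE 0.41), C330018D20Rik at -1.06 (SE 0.28) and 1810037I17Rik at -1.03 (SE 0.32) in the authors' deposited table. 1700037C18Rik shares 573 bp of exon with Naa60 on the opposite strand. Between -0.88 and -0.68 came 6720489N17Rik (-0.88), 1110059E24Rik (-0.80), 1700123O20Rik (-0.78) and A430005L14Rik (-0.68) in the authors' deposited table. The smallest falls were those of 2410004B18Rik (-0.61), 6330403K07Rik (-0.52) and 1110004F10Rik (-0.50) in the authors' deposited table.

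The 9 protein-coding Gm genes were all lower, with a median of -1.03. Among them, 4 lie within 0.774 Mb of each other near the end of chromosome 2 and match 13 to 23 other genes at 95% identity or more. Gm14418 had -1.80 (SE 0.52, adjusted p = 0.0220), Gm14326 -1.10 (SE 0.34, adjusted p = 0.0330), Gm14410 -1.08 (SE 0.35, adjusted p = 0.0394) and Gm14325 -0.91 (SE 0.31, adjusted p = 0.0478) in the authors' deposited table. With so many close relatives their reads cannot be assigned with certainty, and the 4 are not independent of each other. A pair on chromosome 13, Gm5141 (-0.74, SE 0.25) and 6720489N17Rik, lies 148.0 kb apart, both lower in the authors' deposited table, and the latter matches the zinc finger gene Zfp934.

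The other 4 include copies of known genes. Gm10053, a match to the cytochrome c gene Cycs at 99.9% identity, had -0.81 (SE 0.23, adjusted p = 0.0220) in the authors' deposited table. Gm7879, a match to Ppih, the gene of a spliceosomal cyclophilin, at 96.8% identity, had -1.03 (SE 0.32, adjusted p = 0.0327) in the authors' deposited table. Gm11627 had -1.28 (SE 0.29, adjusted p = 0.00198) and Gm4924 -0.94 (SE 0.28, adjusted p = 0.0282) in the authors' deposited table. Cycs and Ppih were not listed.

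The genes with provisional names were short. Their merged exons had a median length of 1365 bp, against 4376 bp for the other genes listed in cHet against cKO. Among protein-coding genes under 2000 bp, 11 of 11 with provisional names and 131 of 139 others (94.2%) were lower. From 2000 to 4000 bp, 13 of 17 (76.5%) and 148 of 240 others (61.7%) were lower. From 4000 bp, 2 of 4 and 177 of 487 others (36.3%) were lower. Direction thus ran with exonic length in the listed genes with and without provisional names. The part of length in the lower values was not tested.

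**Figure D5:**
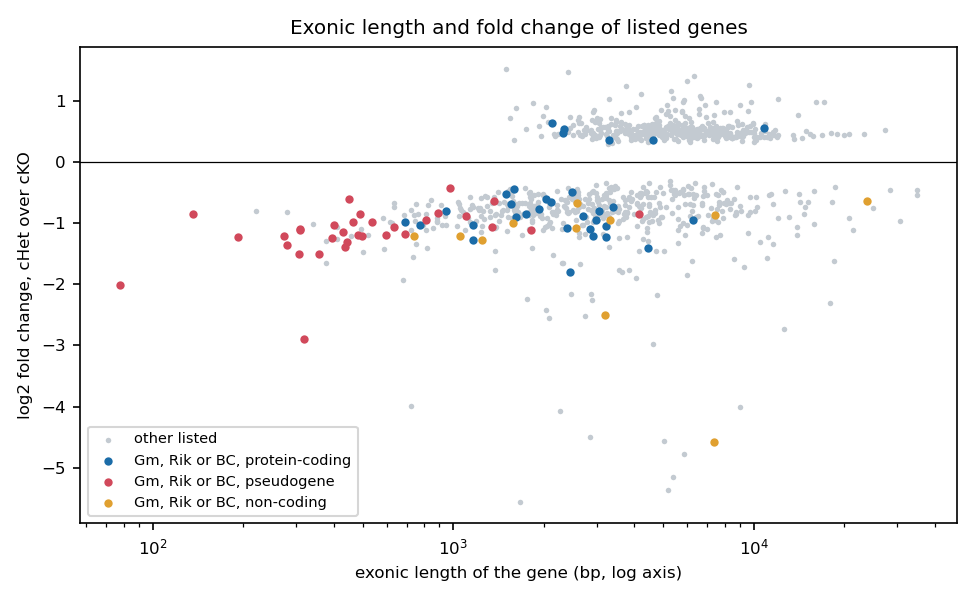
Log2 fold change of cHet against cKO (vertical axis) against merged exonic length in bp (log axis) for all listed genes, with Gm, Rik and BC genes marked. Lower genes have a median length of 2827 bp and higher genes of 5562 bp, and 1 gene below -6.5 is not drawn.

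Several non-coding RNAs lower in cHet than in cKO lay next to other genes. Gm14204 had the lowest value, -4.58 (SE 1.55, adjusted p = 0.0470) in the authors' deposited table, also with the largest SE. It lies 43 bp from Slc32a1, the gene of the vesicular transporter of GABA, on the opposite strand, and Slc32a1 was not listed. D330023K18Rik (-1.28, SE 0.39), 24 bp from Gpr107, 2810001G20Rik (-1.22, SE 0.32), 15 bp from Cox10, and 1700007L15Rik (-1.21, SE 0.41), 108 bp from Zfp148, were lower in the authors' deposited table. None of these 3 neighbours was listed. Gm9828 (-1.08, SE 0.29 in the authors' deposited table) shares 382 bp of exon with Btf3 on the opposite strand, and Btf3 was not listed.

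Further transcripts lay at genes of neural development or of ribosomal RNA. Sox1ot (Gm5607), which contains Sox1, a transcription factor gene of neural progenitors, had -0.87 (SE 0.25, adjusted p = 0.0254) in the authors' deposited table. The pseudogene 1600029O15Rik had -1.11 (SE 0.33, adjusted p = 0.0254) in the authors' deposited table and shares 55 bp of exon with Islr2 on the opposite strand. Islr2, which has a role in axon growth, was itself lower by -0.72 against WT and -0.68 against cKO in the authors' deposited tables. Gm26917, at chr17:39843013-39846341, had -0.95 (SE 0.27, adjusted p = 0.0230) in the authors' deposited table. Beside it lies the ribosomal RNA gene CT010467.1, with -2.16 (SE 0.66) in the authors' deposited table, although the libraries were enriched for poly(A) RNA.

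Markers of cell types were listed in the same tables, where 0.789% of all genes were listed as lower and 0.815% as higher against WT, and 4.14% and 3.12% against cKO. Of 8 ventral telencephalon markers, 6 were lower in cHet against WT, by -4.20 to -7.17, and 6 were lower against cKO, by -4.07 to -5.55, in the authors' deposited tables. Of 5 newborn neuron markers, Nsg2 (-1.32 against WT, -1.46 against cKO) and Stmn2 (-0.999 and -1.11) were lower in cHet in the authors' deposited tables. Of 5 dorsal telencephalon markers, Lhx2, Emx1 and Emx2 were higher in cHet in both, by 0.40 to 0.59 in the authors' deposited tables. Against cKO alone, the authors' deposited table listed Kdr, Cdh5 and Pdgfrb of 5 vessel markers (0.69 to 1.11) and Col3a1 of 3 mesenchyme markers (0.97) as higher, and Hbb-y of 3 red cell markers (-0.74) and Pf4 of 3 macrophage markers (-1.11) as lower. No marker was listed in cKO against WT. The part of these cell types in the values of the Gm, Rik and BC genes was not tested.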

How the data were processed

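Poly(A) RNA of 9 libraries, 3 per genotype, was extracted with an RNeasy kit, per the labels' protocols. Per the submitters' processing notes, reads were trimmed with cutadapt, counted with featureCounts on mm10 and compared with DESeq2, with no versions given. How reads were aligned, whether counting used strand, how reads with several matches were treated and which annotation was used is not given in the sources. Per the file headers, the authors' deposited tables hold a log fold change, its standard error, a statistic and an adjusted p-value for each gene. The deposited fold changes were read as log2 values, the scale of the DESeq2 that the authors used, and the deposited statistic is a score equal to fold change over standard error. The highest adjusted p-value in the deposited tables was 0.0499. A positive value was read as higher in the group named first, and no gene with a known change anchors the sign.

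No values for single libraries were used, so depth is unknown and count tests were not run. The number of genes in each adjustment was recovered from the Benjamini-Hochberg steps of the deposited values, which was tested on simulated data. Genes were annotated with GENCODE M21, and transcripts were compared with BLAST 2.17.0. Genes overlapping the same locus were not counted as copies, a rule set after the first counts were seen, as were the ribosomal list without kinases, the match over 90% of length and the groups of source genes. The members, the other lists, the markers and the other alternatives were chosen with earlier results of these data known. Named genes were those in more than 1 table, higher in cHet, listed in cKO against WT, named Rik or BC, protein-coding, among the 10 smallest adjusted p or 10 largest changes of a comparison, or with a listed source gene. Of the genes so named, 1 pseudogene and its source are not reported here, though they are part of the counts. Where the same number marks a library in each genotype, the labels do not say that it pairs them. Python 3.11.15, pandas 2.3.3, NumPy 2.4.6, SciPy 1.17.1 and matplotlib 3.10.9 were used.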

Additional observations from a re-analysis of the deposited data

How the results depend on the processing

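No paired analysis was possible because the tables hold no values per library. For the same reason leaving out each replicate in turn, DESeq2 against edgeR and other scalings were not run, and what depth limits cannot be given.

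For cHet against WT, 10 Gm, Rik and BC genes were listed. There were 4 at an adjusted p under 0.01 (3 lower, 1 higher) and 2 by Bonferroni (1 lower, 1 higher), with backgrounds of 0.42% and 0.194%. There were 5 changed by 1 or more on the log2 scale, all lower (background 0.388%), 6 that overlap no other gene (5 lower) and 6 that are not protein-coding, all lower. For cKO against WT, the 1 gene was lost, leaving 0, where genes with a copy, by any of the copy rules, or genes overlapping another gene were left out. For cHet against cKO, 75 became 7 at an adjusted p under 0.01 and 4 by Bonferroni, all lower (backgrounds 0.994% and 0.329%). There were 37 with a log2 change of at least 1 and 43 that are not protein-coding, all lower (background 1.24% for the former). There were 47 that overlap no other gene (44 lower). Without genes that have a near-identical copy 38 remained (32 lower), and 33 with copies over 90% of length also left out (27 lower). Counting genes at the same locus as copies, which was done first, gave 31 (27 lower) and 26 (22 lower). The lower genes outnumbered the higher in each of these settings for cHet against cKO.

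Counts of genes in other settings stayed within 1.5 times the reported ones. The number of pseudogenes with a source was 26, and 24 to 31 under the other match rules. Copy rules over 90% of length, rules on annotation names and same-locus copies were chosen after seeing the data.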

Other observations

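Some rows of the authors' deposited tables have no gene name, and the annotation gives some of them a provisional one. In cHet against WT this held for 3 of 5 nameless rows, all lower. Gm35835, a non-coding RNA that overlaps 2610203C20Rik on the opposite strand, had -2.90 (SE 0.77, adjusted p = 0.0208) in the authors' deposited table. Gm43481 had -2.59 (SE 0.74) and Gm43667 -1.85 (SE 0.55) in the authors' deposited table. In cHet against cKO it held for 7 of 13 nameless rows, all lower, with C230057M02Rik at -1.76 (SE 0.48) and Gm2225 at -1.65 (SE 0.43) the lowest in the authors' deposited table. Counting them would give 13 genes against WT and 82 against cKO, 11 and 76 of them lower. Gm32687, left out from the start, is in none of these counts of nameless rows.

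Sox2ot, a non-coding RNA whose row has no name in the tables, was lower in cHet by -1.37 (SE 0.19) against WT and -1.35 (SE 0.19) against cKO in the authors' deposited tables.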
